A study of Mus musculus with 8 samples.

Results

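Interferon sensing by tumor-associated macrophages (TAMs) was described through 9 genes: Ifng, which encodes the ligand IFN-γ; Ifngr1 and Ifngr2, which encode the chains of its receptor; Ifnar1 and Ifnar2, which encode the chains of the receptor for type I interferons; and the Janus kinases Jak1, Jak2, Jak3 and Tyk2. They were taken by gene symbol from a table of 53247 genes, and all 9 were found. The TAMs came from subcutaneous tumors of LLC, the Lewis lung carcinoma line, 14 days after implantation into C57/BL6 mice aged 8 weeks, and were labelled as 10 weeks old. There were 4 WT samples and 4 samples from miR-21-/- mice, which lack miR-21 in all cells and had been bred onto that strain. CD45+ CD11b+ MHC II+ F4/80+ cells were sorted and their mRNA sequenced. One title, that of miR-21-/- replicate 1, holds a pair of numbers, and whether this means pooled mice is not stated.

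IFN-γ is made mainly by T and NK cells and is the classical activator of macrophages. It binds IFNGR1, which carries JAK1, and IFNGR2, which carries JAK2, and the activated kinases lead to transcription from gamma-activated sites (GAS). Type I interferons bind IFNAR1, which carries TYK2, and IFNAR2, which carries JAK1, and signal to the interferon-stimulated response element (ISRE). JAK3 serves receptors that contain the common cytokine receptor γ chain, and no interferon receptor.

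Values are CPM, counts scaled to 1e+06 reads of a library. Library depth, estimated from the smallest steps between values, was 20.2 to 33.4 in units of 1e+06 reads, so that 3 reads were worth 0.0899 to 0.148 CPM. The 12 macrophage markers summed to 15473 to 17170 CPM in WT and 15823 to 18676 CPM in miR-21-/- samples, sums in which Lyz2 alone averaged 4641 and 6116 CPM. Fibroblast markers summed to 67.0 to 143 CPM against 11.6 to 45.9 CPM, and neutrophil markers to 769 to 1169 CPM against 565 to 741 CPM. In the neutrophil sums S100a9 alone averaged 369 and 237 CPM and Csf3r 313 and 240 CPM. Mir21a, the deleted gene, was listed at 0.0001 CPM, the value of a gene without reads, in all 8 samples, so that the genotypes could not be checked by it. Vmp1, whose transcript contains Mir21a, was at 115 to 133 CPM in WT and 373 to 426 CPM in miR-21-/- samples. In bulk RNA, fewer cells of a type and less RNA per cell cannot be told apart.

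The ligand and the receptors moved in opposite directions between the genotypes. Ifng was higher in miR-21-/- TAMs, at a low level that passed the filter for testing only through these samples, whereas all 4 receptor chains were lower. Of the 4 kinases, Jak2 was higher, and Jak1, Jak3 and Tyk2 did not differ detectably. These statements rest on limma fits of log2(CPM + 1) with Benjamini-Hochberg adjustment over 13850 tested genes, at an adjusted p at or under 0.05. By this rule 36.0% of all tested genes differed, 9.49% being higher and 26.5% lower in miR-21-/- TAMs. Of the 9 members, 6 differed, 2 higher and 4 lower. Stricter limits required an adjusted p of at most 0.005 as well as more than a 1.5-fold difference. They were passed by 7.12% of genes, 2.89% higher and 4.23% lower, and among the members by Ifngr1 alone, which was lower. The groups of 4 did not overlap in 35.1% of all tested genes and in 5 of the 9 members.

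**Figure D1:**
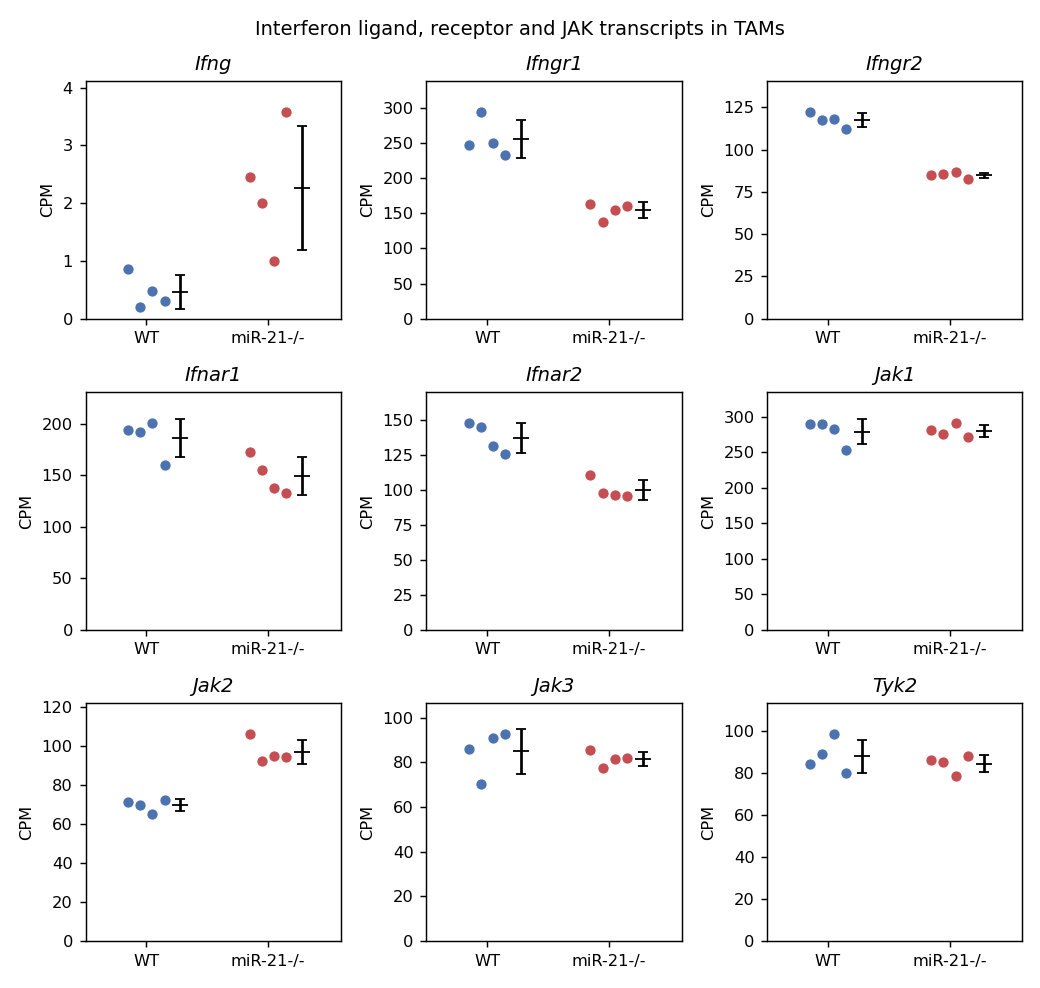
Each panel plots the CPM of 1 gene in the 4 WT samples (blue) and the 4 miR-21-/- samples (red), with the mean and SD in black. The groups are apart for Ifng, Ifngr1, Ifngr2, Ifnar2 and Jak2, and overlap for Ifnar1, Jak1, Jak3 and Tyk2.

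miR-21 guides silencing complexes to transcripts through its seed, bases 2 to 8, in capitals in the mature sequence from RefSeq (GRCm38.p6), shown because it is the deleted RNA.
mmu-miR-21a-5p: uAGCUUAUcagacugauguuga
The 6 bases TAAGCT, which pair with bases 2 to 7, were searched for, per gene, in the longest 3′ UTR that GENCODE vM21 annotates. None of the 9 members held them, over 11201 bases in all, whereas 26.6% of the 11448 tested genes with a 3′ UTR did. This says only that these letters are not in those UTRs.

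The promoters were searched for the letters TTCNNNGAA (GAS, the same on both strands), the ISRE (a pair of GAAA runs 2 bases apart, on either strand) and TATAAA (a core promoter element, on either strand), from 250 bases before to 50 bases after the RefSeq start in GRCm38.p6. All 9 members matched a window by symbol. GAS letters were in the windows of Ifng, Ifnar1 and Ifnar2, and in 8.30% of all 32851 windows. ISRE letters were in none of the 9 and in 3.44% of all windows. The letters TATAAA were in that of Ifng alone, beginning 30 bases before the start, and in 13.6% of all windows. The windows of Ifng, Ifnar1 and Ifnar2 are shown for these matches, in capitals, and those of Ifngr1 and Jak2 because they are the receptor and kinase genes with the largest differences.
Ifng promoter, chr10:118440796-118441095, plus strand: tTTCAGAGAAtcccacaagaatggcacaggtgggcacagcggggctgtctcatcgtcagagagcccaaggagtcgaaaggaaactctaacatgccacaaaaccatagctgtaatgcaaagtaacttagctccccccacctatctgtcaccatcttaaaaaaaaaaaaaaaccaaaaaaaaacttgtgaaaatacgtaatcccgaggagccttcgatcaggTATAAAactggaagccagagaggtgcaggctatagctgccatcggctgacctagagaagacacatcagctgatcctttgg
Ifnar1 promoter, chr16:91484965-91485264, plus strand: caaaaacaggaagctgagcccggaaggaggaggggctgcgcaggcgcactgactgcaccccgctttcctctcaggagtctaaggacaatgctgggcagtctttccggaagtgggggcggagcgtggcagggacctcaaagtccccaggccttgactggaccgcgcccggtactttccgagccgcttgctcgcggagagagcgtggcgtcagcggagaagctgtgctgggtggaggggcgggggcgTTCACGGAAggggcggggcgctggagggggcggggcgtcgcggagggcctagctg
Ifnar2 promoter, chr16:91372533-91372832, plus strand: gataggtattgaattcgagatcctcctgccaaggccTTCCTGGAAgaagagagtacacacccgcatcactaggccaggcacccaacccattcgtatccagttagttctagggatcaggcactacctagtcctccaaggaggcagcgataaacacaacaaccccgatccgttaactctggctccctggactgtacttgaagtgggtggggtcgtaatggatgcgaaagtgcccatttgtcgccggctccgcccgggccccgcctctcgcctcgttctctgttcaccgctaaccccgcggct
Ifngr1 promoter, chr10:19591699-19591998, plus strand: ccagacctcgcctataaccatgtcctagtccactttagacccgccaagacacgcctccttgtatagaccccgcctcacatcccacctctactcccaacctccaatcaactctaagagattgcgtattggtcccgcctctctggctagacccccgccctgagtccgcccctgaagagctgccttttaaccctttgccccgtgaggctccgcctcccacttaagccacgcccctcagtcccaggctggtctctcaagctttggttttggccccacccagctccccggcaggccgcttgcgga
Jak2 promoter, chr19:29251553-29251852, plus strand: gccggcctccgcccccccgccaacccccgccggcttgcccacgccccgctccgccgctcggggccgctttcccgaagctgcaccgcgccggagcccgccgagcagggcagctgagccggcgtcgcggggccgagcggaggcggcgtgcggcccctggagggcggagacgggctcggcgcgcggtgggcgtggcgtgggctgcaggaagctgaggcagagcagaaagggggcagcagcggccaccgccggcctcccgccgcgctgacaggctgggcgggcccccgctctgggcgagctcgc
The GAS letters begin 249, 5 and 214 bases before the start of Ifng, Ifnar1 and Ifnar2. The window of Ifng held 46.0% G and C, below the median of all windows, 52.7%. Those of the receptors and kinases held 54.3% in Jak3 to 81.0% in Jak2. A match in letters is not a binding site, and none was tested here.

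Ifng occupies positions 118441046 to 118445892 of chromosome 10 (GRCm38, plus strand). It was at 0.866, 0.208, 0.484 and 0.298 CPM in WT samples 1 to 4. In miR-21-/- samples 1 to 4 it was at 2.45, 2.00, 0.995 and 3.58 CPM. The 4 miR-21-/- values lay above the 4 WT values, although miR-21-/- replicate 3 was close to WT replicate 1. Among all tested genes, 9.44% had groups that were apart in this direction. The means were 0.464 ± 0.292 and 2.26 ± 1.07 CPM (SD, n = 4 each), a ratio of 4.86.

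The values of Ifng rested on few reads, 6.0, 7.48, 9.78 and 25.9 in the WT libraries and 25.9 to 108 in the miR-21-/- libraries. The log2 fold change was 1.11 (standard error 0.24, adjusted p = 0.00554 from limma), just outside the stricter limit. At this level the fitted value is set by the pseudocount, and was 2.07 with a pseudocount of 0.1 (adjusted p = 0.00485 from limma, past the limit) and 0.22 with one of 10. An exact permutation test of the mean CPM, added after the values were seen, gave p = 0.0286 (two-sided), the smallest that 4 samples against 4 allow. In WT samples alone Ifng was below the filter of 1 CPM that a gene had to reach on average to be tested, so it was tested because of its level in miR-21-/- samples. A predicted transcript on the same strand, AC153498.1, overlaps Ifng, and the counting rule is not given in the sources used here.

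Macrophages are not the usual source of Ifng, so its level was set beside transcripts of T and NK cells. Cd3e, Cd3d and Cd3g, which encode the invariant chains of the T cell receptor complex, summed to 5.04, 5.26, 5.24 and 5.89 CPM in WT samples 1 to 4. In miR-21-/- samples 1 to 4 their sum was 13.6, 5.67, 2.42 and 8.29 CPM. The miR-21-/- samples thus lay below, among and above the WT samples (exact permutation test, two-sided, p = 0.457). Ifng per unit of this sum was 0.172, 0.0395, 0.0923 and 0.0506 in WT and 0.180, 0.353, 0.411 and 0.431 in miR-21-/- samples, so that the groups were again apart, with miR-21-/- replicate 1 next to WT replicate 1 (exact permutation test, two-sided, p = 0.0286). The ratio of the group means was 3.88, against 4.86 for Ifng itself. Against Cd8a, the coreceptor of cytotoxic T cells, the groups were not apart. Cd8a was at 1.32 to 2.19 CPM in WT and 2.80 to 11.6 CPM in miR-21-/- samples. Ifng per unit of Cd8a was 0.432, 0.158, 0.222 and 0.136 in WT and 0.211, 0.331, 0.355 and 0.563 in miR-21-/- samples 1 to 4. These values overlapped, with a ratio of means of 1.54 (exact permutation test, two-sided, p = 0.314). The difference in Ifng relative to T cell transcripts thus depends on the transcript chosen, and these comparisons were added after the values were seen. They use the same few reads of Ifng, whose groups were already apart.

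Of the 12 T cell markers, which included Cd4, all were tested, and Cd8a was higher and Cd4, which macrophages also express, lower at an adjusted p of 0.05 from limma. Of the 12 NK cell markers 5 were tested, and 3 of these were higher at the same limit. Over all tested genes, 9.49% were higher and 26.5% lower at this limit. The NK list summed to 12.3 to 31.4 CPM in WT and 18.4 to 46.8 CPM in miR-21-/- samples, but its defining markers Ncr1 and Klrb1c stayed at or under 0.641 CPM in every library. Cytotoxic genes of that list are shared with T cells. The part of lymphocytes in the level of Ifng was not tested beyond these values.

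**Figure D2:**
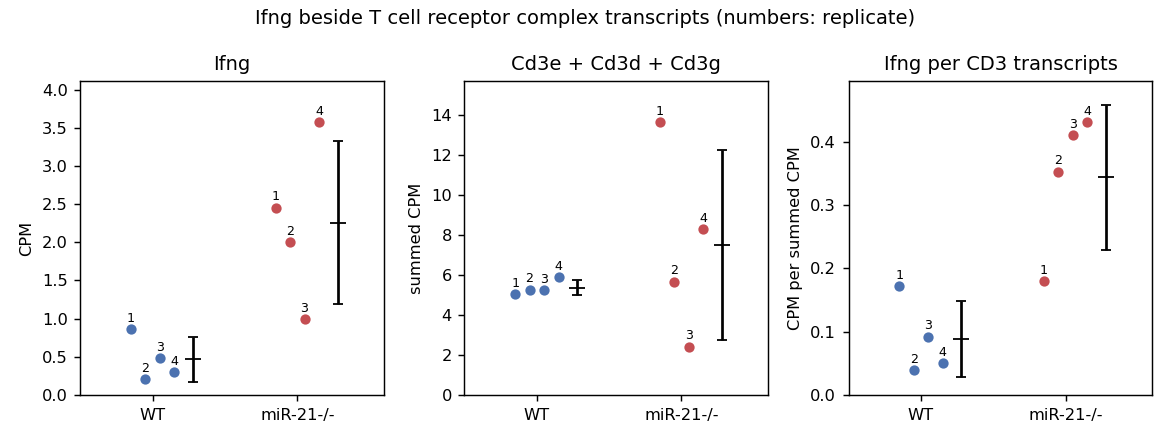
From left to right, the panels plot the CPM of Ifng, the summed CPM of Cd3e, Cd3d and Cd3g, and the former divided by the latter, with 1 numbered point per replicate and the mean and SD in black. The CD3 sums of the genotypes overlap, from 2.42 to 13.6 CPM in miR-21-/- samples around 5.04 to 5.89 CPM in WT, while the values of Ifng per CD3 transcript do not. Ifng per Cd8a, not plotted, overlaps.

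The other interferon genes were at or near the limit of detection. Of 19 further ligand genes, 16 were listed at 0.0001 CPM in all samples, where a count of 0 allows up to 0.148 CPM in the shallowest library. Ifnb1, the type I interferon that macrophages can make, was at 0.0001 to 0.0496 CPM in WT and 0.0001 to 0.150 CPM in miR-21-/- samples. Ifnk reached 0.112 CPM and Ifnab 0.0332 CPM. None of the 19 was tested, and a difference in any of them was not detectable at this depth.

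Ifngr1, the ligand-binding chain of the IFN-γ receptor, fell. The gene lies on chromosome 10 from 19591949 to 19610229, on the plus strand. In WT samples 1 to 4 it was at 247, 294, 249 and 233 CPM, and in miR-21-/- samples 1 to 4 at 164, 138, 155 and 160.2 CPM. The groups were widely apart, WT replicate 2 being the highest and miR-21-/- replicate 2 the lowest. The mean dropped by 39.7%, from 256 ± 26.6 to 154 ± 11.3 CPM (SD, n = 4 each). The log2 fold change was -0.72 (standard error 0.081, adjusted p = 0.000195 from limma), and 4.10% of tested genes had a value as low.

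Ifngr2, the chain that brings in JAK2, was lower as well. It lies on chromosome 16 from 91547072 to 91565623, on the plus strand. Its values were 122, 118, 118 and 112 CPM in WT and 84.9, 85.4, 86.5 and 82.8 CPM in miR-21-/- samples 1 to 4. It was the least variable of the 9 genes, with coefficients of variation of 3.56% and 1.81%, and the groups were far apart for that spread. The mean was 27.7% lower (log2 fold change -0.46, standard error 0.046, adjusted p = 0.000104 from limma), under the 1.5-fold limit.

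Ifnar2, which encodes the JAK1-binding chain of the type I receptor, lies on chromosome 16 from 91372783 to 91405589, on the plus strand. It was at 148, 145, 131 and 125 CPM in WT samples 1 to 4 and at 111, 98.0, 96.0 and 95.9 CPM in miR-21-/- samples 1 to 4. The groups were apart, with miR-21-/- replicate 1 above its group. The mean was 27.1% lower (log2 fold change -0.45, standard error 0.070, adjusted p = 0.00113 from limma). The annotated transcript Gm21970, at up to 4.72 CPM, overlaps both Ifnar2 and its neighbor Il10rb.

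Ifnar1, the chain that carries TYK2, gave the weakest of the 4 receptor differences. It lies on chromosome 16 from 91485238 to 91507441, on the plus strand. It was at 194, 192, 201 and 159.8 CPM in WT and 173, 155, 138 and 132 CPM in miR-21-/- samples 1 to 4. The groups overlapped, since WT replicate 4 lay below miR-21-/- replicate 1. The mean was 19.8% lower (log2 fold change -0.32, standard error 0.096, adjusted p = 0.0272 from limma). It no longer passed when samples were rescaled with the median of ratios (-0.21, adjusted p = 0.137 from limma), without the filter on low values (adjusted p = 0.0825 from limma) and in 5 of the 8 fits that left out 1 sample, those without WT replicate 1, 2 or 3 or without miR-21-/- replicate 3 or 4, in which the adjusted p was 0.0619 to 0.0735.

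Ifnar2, Il10rb, Ifnar1 and Ifngr2 follow each other on chromosome 16 as a cluster of receptor genes. Il10rb, the chain shared by the receptors for IL-10 and type III interferons, averaged 142 CPM in WT TAMs against 118 CPM without miR-21 (log2 fold change -0.27, adjusted p = 0.0150 from limma). After rescaling by the median of ratios its log2 fold change was -0.16 and its adjusted p from limma 0.118. Of the 8 tested genes in the cluster and next to it, 5 were lower at an adjusted p of 0.05, against 26.5% of all tested genes, and none was higher. They are the members Ifnar2, Ifnar1 and Ifngr2, whose differences are given above, and the genes Il10rb and Gart. Gart was close to the limit (log2 fold change -0.23, adjusted p = 0.0476 from limma) and was not followed under other scalings. Ifnar1 and Il10rb did not pass after the median of ratios. The list's median log2 fold change, which includes the members, was -0.28, against -0.10 over all tested genes. Neither this median nor the count is separate from the differences of the members. Ifnlr1, the specific chain of the type III receptor, averaged 1.94 CPM in WT TAMs against 0.791 CPM without miR-21. Its log2 fold change was -0.72 (standard error 0.11, adjusted p = 0.00101 from limma), which is past the stricter limits, but in miR-21-/- samples the gene was under the filter of 1 CPM and was tested because of its level in WT. The call was lost without the filter (adjusted p = 0.00520 from limma), after quantile normalization (-0.58) and with a pseudocount of 10 (-0.15), and with one of 0.1 the value was -1.20.

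Among the kinases, Jak2 was higher. It lies on chromosome 19 from 29251828 to 29313080, on the plus strand. The 4 WT samples were at 71.3, 69.8, 65.2 and 72.5 CPM and the 4 miR-21-/- samples at 106, 92.5, 95.1 and 94.7 CPM. The groups were well apart, with miR-21-/- replicate 1 the highest. The mean was 39.3% higher (log2 fold change 0.47, 95% interval 0.34 to 0.60, adjusted p = 0.000348 from limma). This was under the 1.5-fold limit as deposited and also after rescaling by the median of ratios, where it was 0.58.

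Jak1, which serves both interferon receptors, lies on chromosome 4 from 101152367 to 101265282, on the minus strand. It was at 290.1, 289.9, 282 and 253 CPM in WT and 281, 276, 291 and 271 CPM in miR-21-/- samples. The values overlapped throughout, apart from the low WT replicate 4. The log2 fold change was 0.0066 (95% interval -0.12 to 0.14, adjusted p = 0.940 from limma). It was -0.051 after quantile normalization and 0.12 after the median of ratios, so that no direction can be given.

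Tyk2, which serves IFNAR1, lies on chromosome 9 from 21104068 to 21131243, on the minus strand. It was at 79.6 to 98.2 CPM in WT and 78.2 to 87.7 CPM in miR-21-/- samples. Jak3 lies on chromosome 8 from 71676296 to 71690575, on the plus strand, and was at 70.5 to 92.5 and 77.3 to 85.4 CPM. In both genes the miR-21-/- range lay nearly within the WT range. The log2 fold changes were -0.054 (95% interval -0.21 to 0.10) for Tyk2 and -0.052 (95% interval -0.24 to 0.13) for Jak3, with adjusted p of 0.579 and 0.657 from limma. Changes of the size seen for Jak2 lay outside both intervals. Insl3 overlaps Jak3 on the same strand, at up to 3.06 CPM.

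**Figure D3:**
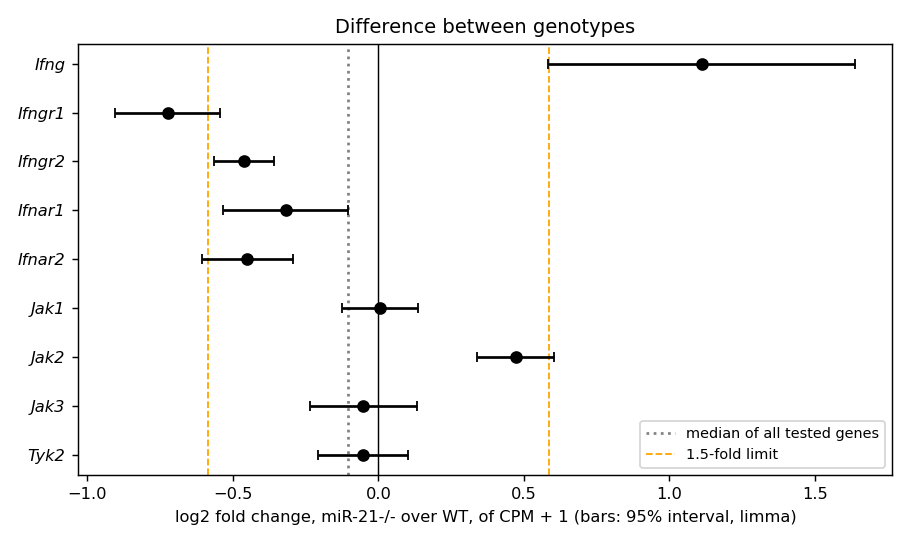
Points mark the log2 fold change of CPM + 1, miR-21-/- over WT, with bars for the 95% interval from limma; dashed lines mark a 1.5-fold change and the dotted line the median of all tested genes, -0.10. The intervals of Ifng and Jak2 lie above 0 and those of the 4 receptor chains below 0, while those of Jak1, Jak3 and Tyk2 include it.

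Directions depend on how the samples are scaled, since all tested genes together had a median of -0.10 on the log2 scale as deposited and -0.0030 after the median of ratios. Relative to the deposited median, the log2 fold changes were -0.62 for Ifngr1, -0.36 for Ifngr2, -0.35 for Ifnar2 and -0.22 for Ifnar1. They were 1.21 for Ifng and 0.57 for Jak2. The 4 receptor chains stayed below 0 and Ifng and Jak2 above 0 under the 3 scalings tried.

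**Figure D4:**
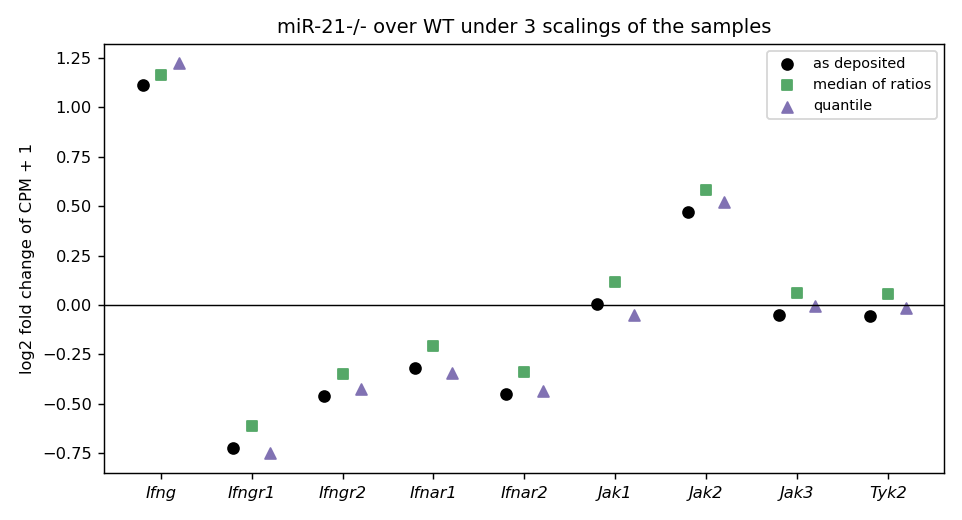
The vertical axis is the log2 fold change of CPM + 1, miR-21-/- over WT, for each of the 9 genes, with values as deposited (circles), after the median of ratios (squares) and after quantile normalization (triangles). Jak1, Jak3 and Tyk2 lie within 0.12 of 0 and change side with the scaling, whereas the other genes keep theirs.

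Ratios within a sample, taken from the values as deposited, do not depend on a factor per sample such as the median of ratios, though quantile normalization can move them. The log2 ratio of Ifngr1 to Ifngr2 averaged 1.11 ± 0.14 (SD, n = 4) in WT TAMs against 0.85 ± 0.12 (SD, n = 4) without miR-21. The 4 miR-21-/- ratios lay below the 4 WT ratios (exact permutation test, two-sided, p = 0.0286). The log2 ratio of Jak2 to Jak1 was -1.98 ± 0.14 and -1.52 ± 0.089, again with the groups apart (exact permutation test, two-sided, p = 0.0286). Over the 5 ratios tested, both exact permutation tests had an adjusted p of 0.0714, 0.0286 being the smallest p the design allows. The ratio of Ifnar1 to Ifnar2 was 0.44 ± 0.12 and 0.57 ± 0.094, with overlapping groups (exact permutation test, two-sided, p = 0.143). Those of Tyk2 and Jak3 to Jak1 differed by -0.060 and -0.058 (exact permutation tests, two-sided, p = 0.486 and 0.686).

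Levels of different genes were compared per kilobase of annotated exons. In WT TAMs Ifngr1 was highest, at 89.9 ± 9.34 CPM per kilobase (SD, n = 4). Ifnar2 followed at 41.2 ± 3.23 and Jak1 at 38.6 ± 2.47, with overlapping ranges. Ifnar1 at 31.4 ± 3.06 and Ifngr2 at 31.2 ± 1.11 CPM per kilobase could not be told apart either. Jak3, Jak2 and Tyk2 were lower, at 15.9 ± 1.87, 13.9 ± 0.636 and 12.8 ± 1.16 CPM per kilobase, each overlapping the next. Ifng was lowest at 0.358 ± 0.225.

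In miR-21-/- TAMs Ifngr1 remained highest at 54.2 ± 3.98 CPM per kilobase. Jak1 came next at 38.7 ± 1.18, with its range above that of Ifnar2 at 30.1 ± 2.13. Ifnar2 overlapped Ifnar1 at 25.2 ± 3.07, and Ifnar1 overlapped Ifngr2 at 22.5 ± 0.409. Jak2 stood at 19.3 ± 1.21, above Jak3 at 15.2 ± 0.620 and Tyk2 at 12.3 ± 0.615, with no overlap between them. Jak2 thus moved from among the other low kinases to above them. Ifng was at 1.74 ± 0.827 CPM per kilobase.

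With the genotype means removed, the 3 genes most like Ifngr1 over the 8 samples were Prdm15 (Pearson r = 0.98), Zfp971 (r = 0.97) and Emc2 (r = 0.96). These are the highest of 13850 correlations over few samples and are given as a description. Their log2 fold changes between genotypes, -0.076, -0.088 and 0.095, were small.

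Downstream genes were counted on lists on which a gene may stand more than once. The lists were written from general knowledge, with earlier results of these data known. Of 20 genes known to be induced by IFN-γ, 19 rose past the stricter limits, with a median log2 fold change of 1.6. They include Ido1, which averaged 0.232 CPM in WT TAMs against 1.59 CPM without miR-21 and was tested only because of the latter. Without the filter on low values Ido1 (adjusted p = 0.00774 from limma) and Psmb9 (adjusted p = 0.00797 from limma) did not pass, and the count was 17. The value of Ido1 ran from 0.18 with a pseudocount of 10, where it did not pass, to 2.74 with one of 0.1. Ido1 also failed without WT replicate 2 (adjusted p = 0.00533 from limma) or miR-21-/- replicate 2 (adjusted p = 0.00547), and was under the filter without miR-21-/- replicate 4. Irf1, an IFN-γ induced transcription factor, rose from 121 ± 17.9 to 376 ± 51.7 CPM (1.63 on the log2 scale, SD, n = 4 each). Ciita was the exception, at -0.14 (adjusted p = 0.659 from limma). Of 21 genes typical of type I interferons, 1, Dhx58, rose past the same limits (0.68), and at an adjusted p of 0.05 from limma 6 were higher and 3 lower. Over all tested genes, 2.89% were higher by the stricter limits, and 9.49% were higher and 26.5% lower at 0.05. The median of the list was 0.14. Rsad2 had the highest value of that list, 0.75, and Oas2 the lowest, -0.47, which did not pass after the median of ratios (adjusted p = 0.0544 from limma).

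Among transcription factors that act below cytokine receptors, Stat3, at 0.36, and Stat2, at 0.32, were higher at an adjusted p of 0.05 from limma, and Stat4 was lower, at -0.46. Stat4 did not pass without the filter (adjusted p = 0.0744 from limma) or after quantile normalization (adjusted p = 0.0817) or the median of ratios (adjusted p = 0.0835). Stat6 and Irf9 did not differ detectably, at -0.060 and 0.041.

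The list of negative regulators of JAK signaling had 20 tested genes and a median of -0.11, close to that of all genes. Socs1, which encodes an inhibitor of the JAK kinases, rose from 4.12 to 6.38 CPM in WT samples to 21.1 to 33.4 CPM in miR-21-/- samples (log2 fold change 2.14, standard error 0.16, adjusted p = 1.66e-05 from limma). Ptpn2, a phosphatase of JAK1, was at 28.4 and 41.3 CPM. Its log2 fold change was 0.53 (adjusted p = 0.000118 from limma), and over the fold limit after both other scalings. Sh2b3, an adaptor that restrains JAK2, had the lowest value, -0.36 (adjusted p = 0.00586 from limma).

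The other receptors that use these kinases did not share one direction. Of 26 tested genes, 6 rose and 2 fell past the stricter limits, and the median was 0.11. Over all tested genes, 2.89% were higher and 4.23% lower by these limits. Il2rg, the common γ chain that carries JAK3, rose from 188 ± 5.81 to 311 ± 14.7 CPM (0.72 on the log2 scale, SD, n = 4 each), while Jak3 itself did not differ detectably. Its partner chains were mixed. Il7r (2.12), Il21r (1.33), Il4ra (0.75) and Il15ra (0.71) rose, though Il4ra did not pass without the filter (adjusted p = 0.00854 from limma) nor Il15ra with a pseudocount of 10 (0.44). By contrast, Il2ra was lower at an adjusted p of 0.0215 from limma (-0.61) and Il2rb was at 0.20 (adjusted p = 0.580 from limma). Il12rb1 (1.88), a chain that carries TYK2, rose as well. Lifr (-1.83) and Epor (-1.55) fell. Epor, which averaged 2.46 CPM in WT TAMs against 0.143 CPM without miR-21, was tested only because of its level in WT, and its value ran from -3.36 with a pseudocount of 0.1 to -0.29, no longer past the fold limit, with one of 10. Of 4 tested cytokines that induce IFN-γ, Il27 rose past the limits, with a log2 fold change of 1.00, but not without the filter (adjusted p = 0.00847 from limma), with a pseudocount of 10 (0.45) or without miR-21-/- replicate 3 (adjusted p = 0.00521 from limma). Il15 was higher at 0.39, with an adjusted p of 0.00457 from limma.

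**Figure D5:**
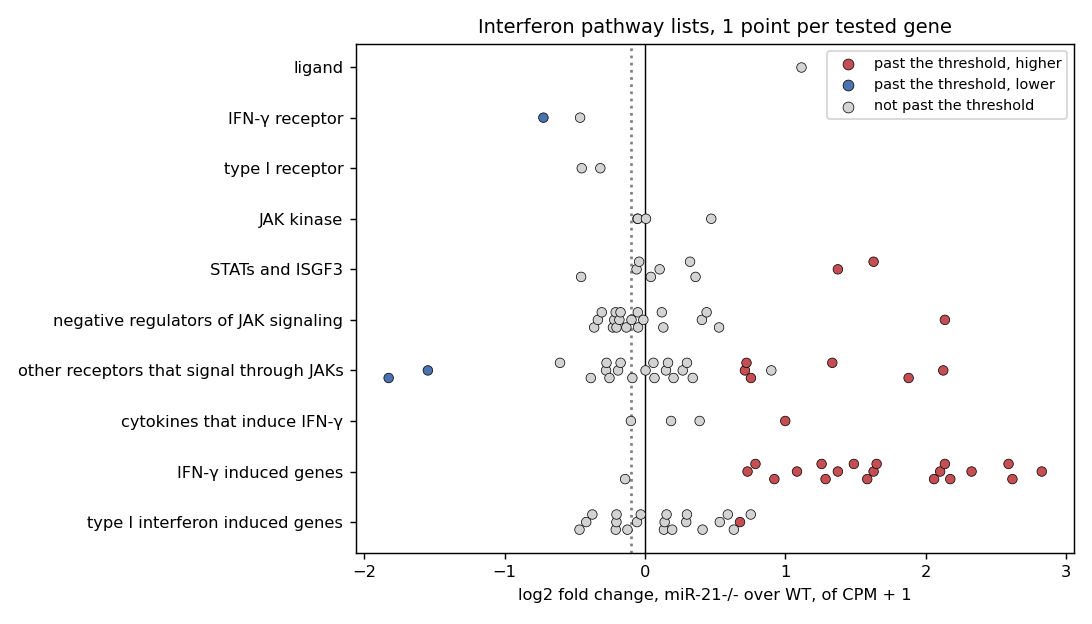
Each point is a tested gene, placed by its log2 fold change of CPM + 1 (miR-21-/- over WT) in rows by list; red and blue points passed the stricter limits as higher or lower, grey points did not, and the dotted line is the median of all tested genes. Of the IFN-γ induced genes 19 of 20 are red, the receptor chains lie left of the dotted line and the type I interferon induced genes spread on both sides of 0.

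Beside the lower receptor values, markers of other cells moved with genotype. Of 6 tested fibroblast markers 4 were past the stricter limits, all lower, and of 7 tested neutrophil markers 5 were lower at an adjusted p of 0.05 from limma. B cell markers, of which 3 were tested and 2 fell past the stricter limits, summed to 59.2 to 98.8 CPM in WT and 15.6 to 27.7 CPM in miR-21-/- samples. Csf3r is on both the neutrophil and the receptor list. Among the 12 macrophage markers, Adgre1, which encodes the sorting marker F4/80, was lower (log2 fold change -0.38, adjusted p = 0.00140 from limma), as was Csf1r, the receptor of the macrophage growth factor (-0.48, adjusted p = 0.00538 from limma). Fcgr1, an IgG receptor, rose (0.75), and the other 9 did not pass. The differences in Adgre1 and Csf1r were of a size like those of Ifngr2, Ifnar1 and Ifnar2. Epithelial and LLC tumor cell markers summed to 19.9 to 26.3 CPM against 13.7 to 18.4 CPM, and of 4 tested Krt7 and Krt8 were lower at an adjusted p of 0.05 from limma. Krt7 averaged 1.20 CPM with miR-21 but 0.639 CPM without it, under the filter of 1 CPM, and was tested only because of its level in WT. The sums of the fibroblast, neutrophil, B cell and tumor cell lists did not overlap between the genotypes. Of 7 tested dendritic cell markers, Clec9a was higher (1.26) and Cd209a lower (-1.28) at an adjusted p of 0.05 from limma, and the sums overlapped. The mean of Cd209a fell from 2.62 CPM with miR-21 to 0.396 CPM without it, under the filter of 1 CPM. Cd209a was thus tested only because of its level in WT. The part of these markers in the receptor differences was not tested.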

How the data were processed

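The authors deposited 1 CPM value per gene and sample, each raised by 0.0001. Their processing notes name STAR, Partek 7.0 and mm10, without roles. The annotation release, counting rule and strand are not given in the sources used here. Up to 20 reads, 72.7% to 73.7% of the values were whole reads within 0.02, so whole counts were not recovered and no count test was run.

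log2(CPM + 1) was fitted with limma 3.58.1 (trend) in R 4.3.3 over 13850 genes averaging at least 1 CPM of the column totals. All 9 members passed, so the permutation test planned for members under this filter was not needed. Ratios and Ifng were compared with exact permutation tests over all assignments of the samples, counting absolute differences of means. The limma p-values set a difference of means against the spread between samples, and the exact ones set it against reassignments of the samples. The members and lists were chosen with earlier results of these data known. Genes named are the members, genes past the limits or at the extremes of a list, Il10rb, Mir21a, Vmp1 and the 3 genes most like Ifngr1. Others were chosen after their values were seen, and 1 gene of the lists is not reported by name. Coordinates, exon lengths and UTRs are from GENCODE vM21 (GRCm38), and promoters and miR-21 from RefSeq. The fit was tested on simulated data. Alternatives were other pseudocounts, filters, scalings, weights and limits, eBayes without trend, a replicate block and leaving out each sample.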

Additional observations from a re-analysis of the deposited data

Results flagged for a closer look

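In 11 of 126 groups of 4 samples, 1 sample stood apart from the others by Dixon's test, which chance does in about 1 group in 20. Among the members, Ifnar2 was at 111 CPM in miR-21-/- replicate 1 and at 95.9 to 98.0 CPM in the other miR-21-/- samples. Son, a neighbor of the receptor cluster, was at 597 CPM in that replicate against 529 to 536 CPM, Oas2 at 96.2 against 70.5 to 71.0 CPM and Rsad2 at 154 against 113 to 115 CPM. In miR-21-/- replicate 4, Il4ra was at 686 against 820.1 to 839 CPM and Il18 at 21.8 against 18.4 to 18.8 CPM. In WT replicate 4, Gbp3 was at 72.6 against 52.2 to 53.7 CPM, Psmb9 at 77.5 against 51.0 to 54.3 CPM and Il23a at 1.51 against 0.836 to 0.891 CPM. Il12rb1 was at 21.2 CPM in WT replicate 3 against 13.3 to 14.3 CPM, and Lifr at 102 CPM in WT replicate 2 against 62.1 to 67.9 CPM.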

How the results depend on the processing

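Ifngr1 kept its direction and its side of the stricter limits under every alternative run, with log2 fold changes of -0.77 to -0.66 when 1 sample was left out. Ifngr2 (-0.48 to -0.44), Ifnar1 (-0.39 to -0.26), Ifnar2 (-0.50 to -0.42) and Jak2 (0.43 to 0.49) kept their direction when 1 sample was left out. At an adjusted p of 0.05 without a fold limit, Ifng (1.11), Ifngr2 (-0.46), Ifnar1 (-0.32), Ifnar2 (-0.45) and Jak2 (0.47) also passed, as did 4982 genes in all and 59 genes of the pathway lists. Ifng passed the stricter limits with a pseudocount of 0.1 (2.07, adjusted p = 0.00485 from limma) and after quantile normalization (1.22). Its value was 0.22 with a pseudocount of 10 and 0.93 to 1.33 when 1 sample was left out, where it passed only without miR-21-/- replicate 3, and a filter at 5 CPM removed it.

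The sign of Jak1 turned after quantile normalization (-0.051), with sample weights (-0.012) and within the leave-one-out range (-0.040 to 0.027). That of Jak3 turned after the median of ratios (0.059), and that of Tyk2 there (0.058) and within the leave-one-out range (-0.098 to 0.0016). The leave-one-out range was -0.14 to -0.0084 for Jak3. It was -0.30 to -0.19 for the ratio of Ifngr1 to Ifngr2, 0.42 to 0.53 for Jak2 to Jak1, 0.10 to 0.19 for Ifnar1 to Ifnar2, -0.098 to -0.0058 for Tyk2 to Jak1 and -0.16 to 0.032 for Jak3 to Jak1. Among other genes, the signs of Stat6 (0.052) and Il18 (0.0066) turned after the median of ratios and that of Ciita within its leave-one-out range (-0.33 to 0.080, the latter without miR-21-/- replicate 2). The cause was not tested.

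Over all genes, 986 passed the stricter limits, 452 with a pseudocount of 10, 517 without a filter and 684 to 1002 when 1 sample was left out; of the pathway genes 30 passed, and 29 to 32 when 1 sample was left out. Of the genes called, 40.6% were higher as deposited, 59.8% with the median of ratios, and 59.3% with quantile normalization. Deviations of same-numbered samples correlated at -0.14, -0.11, 0.083 and 0.22, so the numbers were not taken to pair the samples. The numbers, also used for the replicate block, are the biological replicate numbers of the sample descriptions. The titles number the miR-21-/- samples otherwise. By title, WT replicate 3 goes with miR-21-/- replicate 2 (correlation 0.14) and WT replicate 4 with miR-21-/- replicate 3 (0.032). With the replicate block 922 genes and 33 pathway genes passed, and no call of a member changed (Ifng, adjusted p = 0.00794 from limma). edgeR and DESeq2 were not run, since whole reads were not recovered. At this depth Ifng rested on 6.0 to 25.9 reads in the WT libraries.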
